A study of Mus musculus with 24 samples.

Results

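The endothelial genes Pecam1, Cdh5, Kdr, Tek, Tie1, Emcn, Flt1, Vwf, Esam and Cldn5 were followed through cartilage explants of the mouse. They were taken by symbol from the deposited gene counts, and all 10 of them were found among 52178 genes and passed the filter on low counts, over 6 groups of tissue and pressure. The study cultured hip caps, the articular cartilage of the femoral head avulsed from male C57/BL6 mice aged 4 weeks without the underlying bone, and whole metatarsals from E15 C57/BL6 embryos (the study's methods name the strain C57/BL6J for both). Each hip cap library pooled the 2 hip caps of 1 mouse, each metatarsal library pooled 6 bones, and each tissue had its own culture medium. After 24 h of culture the explants spent 1 h in a syringe at 0, 5 or 50 MPa of hydrostatic pressure, the 0 MPa group being the control, and were cultured for 24 h more before RNA was taken from the whole explant. The hip cap libraries are called HC1 to HC4 at 0 MPa, H51 to H54 at 5 MPa and H501 to H504 at 50 MPa, and the metatarsal libraries are likewise MC1 to MC4, M51 to M54 and M501 to M504. The fit used 22 of the 24 libraries, since the study left out HC4 and H502, which stood apart in its clustering, and the values of both are printed beside the fitted ones. RNA came from whole explants and not from sorted endothelial cells, so in these bulk libraries fewer endothelial cells and less RNA per cell cannot be told apart.

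Endothelial cells line blood vessels, and the cartilage matrix itself has none. Vessels lie in the tissues around a cartilage rudiment and enter it when the hypertrophic centre is replaced by bone, guided by vascular endothelial growth factor (VEGF) from hypertrophic chondrocytes. Kdr is the main signalling receptor for VEGF, Flt1 binds VEGF tightly and limits how much reaches Kdr, Tek is the receptor of the angiopoietins and Tie1 is its partner receptor. Cdh5, Pecam1, Esam and Cldn5 are adhesion proteins of the contacts between endothelial cells, Emcn is a surface sialomucin of veins and capillaries, and Vwf is the clotting protein that endothelial cells and platelets store.

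The annotation placed the receptor genes at Kdr (ENSMUSG00000062960, chr5:75932827-75978458, minus strand), Flt1 (ENSMUSG00000029648, chr5:147561604-147726011, minus strand), Tek (ENSMUSG00000006386, chr4:94739289-94874976, plus strand) and Tie1 (ENSMUSG00000033191, chr4:118471191-118490061, minus strand) in the GRCm38 build. Kdr, Flt1 and Tek were the receptor genes called lower in hip caps than in metatarsals, so the stretches upstream of their starts are shown. The sequences are RefSeq start-site windows of build GRCm38.p6, cut back to the part outside the gene, and the capitals mark the words AGGAAG and CAGGAA on either strand, which hold the GGAA core bound by ETS factors, a family with many regulators of endothelial genes. The window of Kdr was chr5:75978459-75978705 on the minus strand, that of Tek chr4:94739039-94739288 on the plus strand and that of Flt1 chr5:147726012-147726261 on the minus strand.
Kdr: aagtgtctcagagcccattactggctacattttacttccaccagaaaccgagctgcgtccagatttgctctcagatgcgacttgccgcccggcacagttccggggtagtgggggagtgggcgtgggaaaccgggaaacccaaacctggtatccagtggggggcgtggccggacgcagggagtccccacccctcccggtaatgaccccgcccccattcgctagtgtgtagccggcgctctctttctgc
Tek: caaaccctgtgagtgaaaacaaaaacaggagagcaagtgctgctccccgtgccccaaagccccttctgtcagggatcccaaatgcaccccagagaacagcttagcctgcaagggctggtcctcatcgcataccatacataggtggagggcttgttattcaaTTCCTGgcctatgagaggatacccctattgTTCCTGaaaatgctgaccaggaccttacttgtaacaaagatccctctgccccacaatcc
Flt1: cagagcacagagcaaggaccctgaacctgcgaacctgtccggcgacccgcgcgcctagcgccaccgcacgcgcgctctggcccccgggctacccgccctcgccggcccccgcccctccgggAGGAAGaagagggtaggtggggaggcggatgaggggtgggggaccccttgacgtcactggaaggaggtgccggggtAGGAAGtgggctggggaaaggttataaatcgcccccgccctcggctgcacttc
The Flt1 window held 2 matches to AGGAAG and the Tek window 2 to CAGGAA, whereas the Kdr window held neither word. The GGAA core alone had 4 matches in the Kdr window, 4 in that of Flt1 and 2 in that of Tek. It occurred in 93.4% of all upstream windows. AGGAAG occurred in 29.5% and CAGGAA in 25.7% of all 32851 upstream windows of 250 bases, so a match is a description and no site. Windows of RefSeq were found for 6 of the 10 genes.

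Libraries held between 4185241 (MC1) and 25104240 (H54) counts. Levels are CPM, counts per 1000000 counts in tested genes after TMM scaling, a method that sets libraries to a common level over most genes. The labels call HC3, the 4 hip cap libraries at 50 MPa and M504 unstranded and the other 18 stranded, so 50 MPa in hip caps and library type are nearly the same split. All 10 chondrocyte genes of a fixed list were called higher in hip cap than in metatarsal controls, beside 18.4% of all tested genes. All 10 skeletal muscle genes were called lower, beside 20.2%. HC4 stood apart from the other hip cap controls, with 9558 CPM summed over the chondrocyte list against 49635 to 78212, and 828 CPM over the macrophage list against 112 to 325. The part of these differences in the endothelial results was not tested.

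Among the receptors, Kdr separated the tissues most clearly. In hip caps Kdr stood at 1.36, 5.25 and 6.67 CPM in HC1 to HC3, at 12.9, 8.02, 34.9 and 6.98 in the 5 MPa libraries and at 20.7, 13.6 and 10.2 in the fitted 50 MPa libraries, with 12 in HC4 and 15.3 in H502. In metatarsals it stood at 19.3, 22.9, 26.7 and 23.8 CPM in the controls, 26.3, 29.1, 29.1 and 22.5 at 5 MPa and 24.1, 25.6, 28 and 21.4 at 50 MPa. Every metatarsal library was above HC1 to HC4, and the 12 metatarsal libraries lay within 1.51-fold of each other. HC1 held only 5 Kdr counts, and H53 was the highest hip cap library. Flt1 was measured in hip caps at 3.53, 5.09 and 2.67 CPM in HC1 to HC3, at 5.48, 3.16, 14.9 and 4.39 in the 5 MPa libraries and at 7.91, 6.24 and 2.48 in the fitted 50 MPa libraries, with 9.40 in HC4 and 20.4 in H502. In metatarsals Flt1 was at 8.04, 14.3, 11 and 10.7 CPM in the controls, 12.8, 15.8, 10.1 and 11 at 5 MPa and 11, 9.48, 11.6 and 7.85 at 50 MPa. Its hip cap controls lay below the metatarsal controls except for HC4, which fell among them.

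Tek, which endothelial cells and few other cells make, had few counts. Hip caps held Tek at 0.272, 0.636 and 2.10 CPM in HC1 to HC3, at 1.55, 1.20, 3.97 and 0.635 in the 5 MPa libraries and at 3.16, 5.20 and 0.619 in the fitted 50 MPa libraries, with 1.48 in HC4 and 3.77 in H502. Metatarsals held it at 2.49, 4.55, 3.77 and 3.47 CPM in the controls, 3.14, 4.65, 3.83 and 2.93 at 5 MPa and 3.97, 3.70, 2.70 and 3.89 at 50 MPa. These values rest on few reads, 1 count in HC1 and 2 in H504, and the 4 hip cap controls were below the 4 metatarsal controls. Tie1, its partner, was at 3.53, 2.71 and 6.29 CPM in HC1 to HC3, at 6.73, 3.16, 17.3 and 4.25 in the 5 MPa libraries and at 9.70, 8.53 and 4.64 in the fitted 50 MPa libraries, with 23.5 in HC4 and 17.3 in H502. The metatarsal values of Tie1 were 3.83, 6.69, 9.55 and 8.65 CPM in the controls, 6.11, 8, 8.36 and 7.27 at 5 MPa and 6.61, 7.21, 6.97 and 9.90 at 50 MPa. The Tie1 groups of the 2 tissues overlapped, and HC4 was the highest of all 24 libraries.

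**Figure D1:**
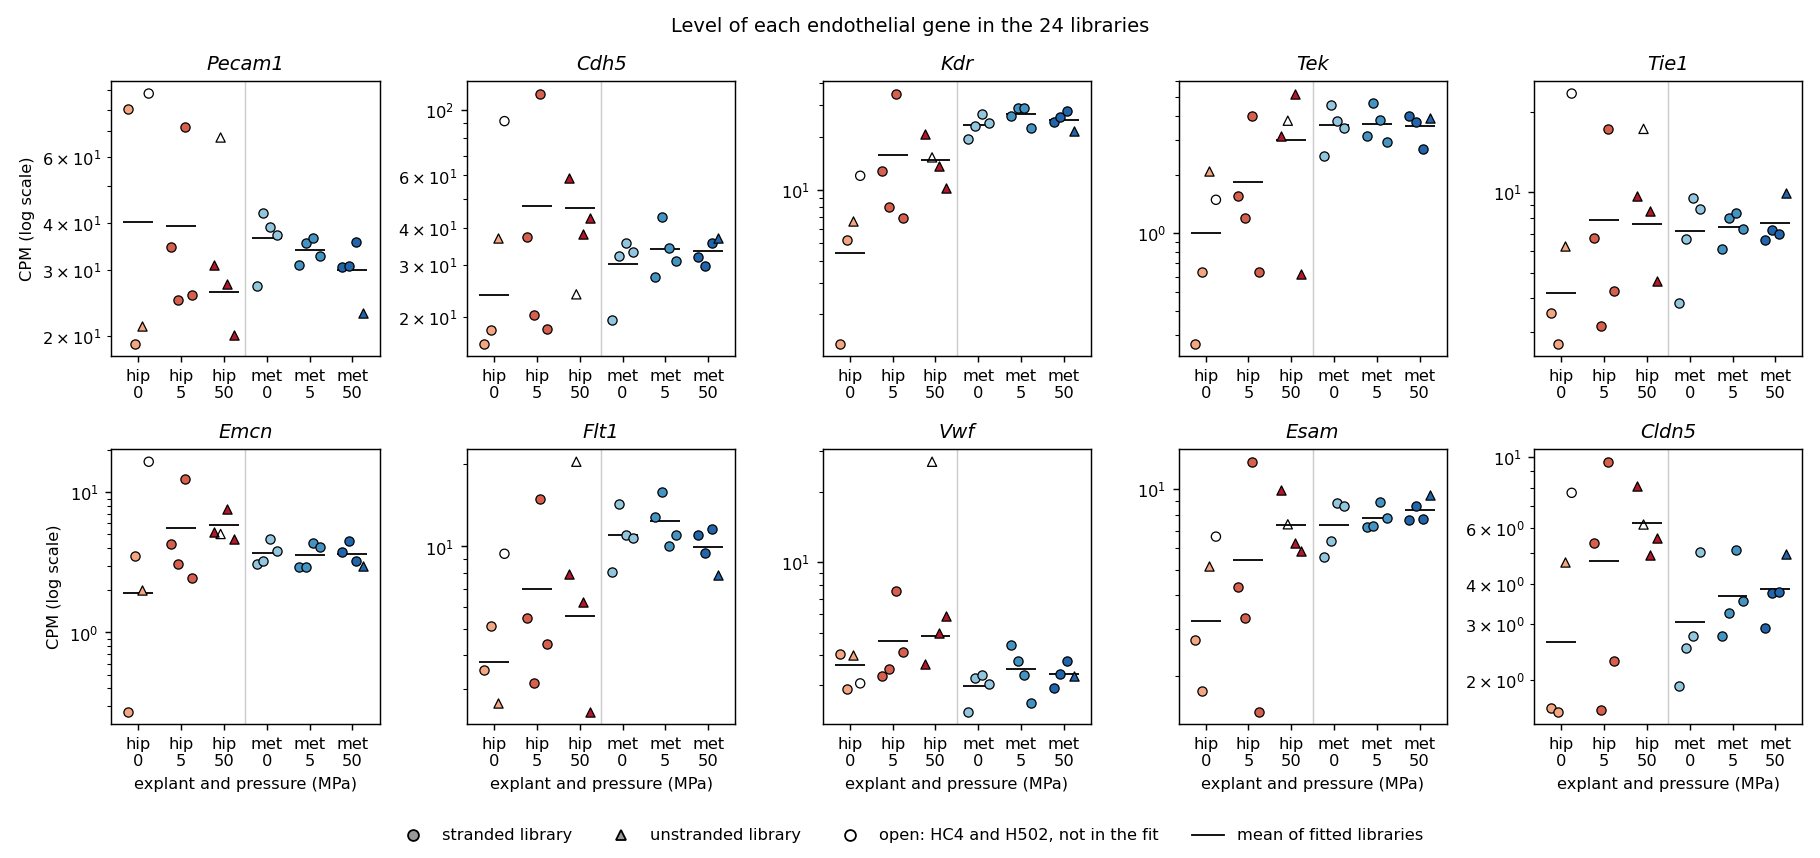
CPM of each endothelial gene in each of the 24 libraries on a log axis, by explant and pressure in MPa. Circles are stranded and triangles unstranded libraries, open symbols are HC4 and H502, and lines are means of the fitted libraries. For each gene the metatarsal libraries stay closer together than the fitted hip caps, from 1.94-fold against 2.65-fold for Vwf to 1.59-fold against 45.9-fold for Emcn. H53 is highest among the 5 MPa hip caps for all 10 genes.

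Of the genes of cell contacts, Cdh5 (ENSMUSG00000031871, chr8:104101625-104144511, plus strand) encodes VE-cadherin and Pecam1 (ENSMUSG00000020717, chr11:106654217-106750628, minus strand) encodes CD31. Cdh5 stood in hip caps at 16.3, 18.1 and 37 CPM in HC1 to HC3, at 37.3, 20.3, 113 and 18.2 in the 5 MPa libraries and at 58.7, 38 and 43.3 in the fitted 50 MPa libraries, with 91.4 in HC4 and 23.9 in H502. Its metatarsal values were 19.5, 32.3, 35.6 and 33.3 CPM in the controls, 27.3, 43.5, 34.2 and 31 at 5 MPa and 31.8, 29.7, 35.7 and 37 at 50 MPa. H53 and HC4 were the highest hip cap libraries and both exceeded every metatarsal library. Pecam1 stood in hip caps at 80.2, 19.1 and 21.3 CPM in HC1 to HC3, at 34.4, 25, 71.7 and 25.7 in the 5 MPa libraries and at 30.9, 27.6 and 20.1 in the fitted 50 MPa libraries, with 88.3 in HC4 and 67.5 in H502. In metatarsals Pecam1 stood at 27.2, 42.6, 38.9 and 37.1 CPM in the controls, 30.9, 35.5, 36.4 and 32.7 at 5 MPa and 30.6, 30.6, 35.6 and 23 at 50 MPa. HC1 was far above HC2 and HC3 for Pecam1 but not for Cdh5 or Kdr, its 295 Pecam1 counts standing beside 60 for Cdh5 and 5 for Kdr.

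Esam, from ENSMUSG00000001946, chr9:37528078-37538319, plus strand, was measured in hip caps at 2.72, 1.75 and 5.14 CPM in HC1 to HC3, at 4.29, 3.30, 12.7 and 1.46 in the 5 MPa libraries and at 9.91, 6.31 and 5.88 in the fitted 50 MPa libraries, with 6.65 in HC4 and 7.39 in H502. In metatarsals it was at 5.55, 6.42, 8.86 and 8.65 CPM in the controls, 7.23, 7.30, 8.95 and 7.82 at 5 MPa and 7.67, 8.64, 7.75 and 9.52 at 50 MPa. HC1 to HC3 lay below all 4 metatarsal controls and HC4 fell among them. Cldn5, from ENSMUSG00000041378, chr16:18776847-18778262, plus strand, was at 1.63, 1.59 and 4.67 CPM in HC1 to HC3, at 5.36, 1.62, 9.64 and 2.30 in the 5 MPa libraries and at 8.12, 4.92 and 5.57 in the fitted 50 MPa libraries, with 7.71 in HC4 and 6.13 in H502. The metatarsal libraries held Cldn5 at 1.91, 2.51, 2.74 and 5.02 CPM in the controls, 2.74, 3.24, 5.12 and 3.53 at 5 MPa and 2.91, 3.74, 3.79 and 4.95 at 50 MPa. Cldn5 overlapped between the tissues at each pressure, at 50 MPa through 1 metatarsal library (M504) just above the lowest hip cap value.

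The remaining genes were Emcn, at ENSMUSG00000054690, chr3:137341067-137432185, plus strand, and Vwf, at ENSMUSG00000001930, chr6:125546774-125686679, plus strand. Emcn stood in hip caps at 0.272, 3.50 and 2 CPM in HC1 to HC3, at 4.29, 3.09, 12.5 and 2.44 in the 5 MPa libraries and at 5.17, 7.56 and 4.64 in the fitted 50 MPa libraries, with 16.5 in HC4 and 5.03 in H502. In metatarsals it stood at 3.06, 3.21, 4.63 and 3.78 CPM in the controls, 2.92, 2.92, 4.36 and 4.08 at 5 MPa and 3.77, 4.50, 3.24 and 2.97 at 50 MPa. HC1, with 1 count, and HC4 were the lowest and the highest of the 24 libraries. Vwf was measured in hip caps at 4.08, 2.86 and 4 CPM in HC1 to HC3, at 3.27, 3.52, 7.58 and 4.15 in the 5 MPa libraries and at 3.69, 4.99 and 5.88 in the fitted 50 MPa libraries, with 3.04 in HC4 and 26.9 in H502. Metatarsals gave Vwf values of 2.30, 3.21, 3.32 and 3.01 CPM in the controls, 4.45, 3.78, 3.30 and 2.51 at 5 MPa and 2.91, 3.34, 3.79 and 3.28 at 50 MPa. Vwf varied least among hip caps, by 2.65-fold over the 10 fitted libraries against 45.9-fold for Emcn, and H502 stood alone at the top.

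Levels per kilobase of merged exons give an approximate scale for setting different genes side by side. The order depends on the annotated exons, and the lengths of the transcripts in use were not measured. Cdh5 and Pecam1 led the metatarsal controls, at 7.17 ± 1.72 and 5.85 ± 1.06 CPM per kilobase (SD, n = 4), a pair that did not differ beyond its spread. Esam at 2.57 ± 0.572, Kdr at 2.57 ± 0.336 and Cldn5 at 2.15 ± 0.960 followed, again within their spreads, and Vwf was last. In the 3 fitted hip cap controls Cldn5 ranked 3 and Kdr ranked 6, at 1.86 ± 1.25 and 0.490 ± 0.304 CPM per kilobase (SD, n = 3), whereas Kdr ranked 4 and Cldn5 ranked 5 in the metatarsal controls.

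The first comparison set hip caps against metatarsals at 0 MPa. Kdr, Tek, Flt1 and Esam were lower in hip caps, 4 of the 10 genes, beside 20.2% of all 21283 tested genes called lower, and 0 were called higher beside 18.4%. Tissue, age and culture medium changed together here and cannot be told apart. Kdr averaged 4.43 ± 2.75 CPM (SD, n = 3) over HC1 to HC3, and the metatarsal controls averaged 23.2 ± 3.03 CPM (SD, n = 4), 5.09-fold lower in the fit (log2 fold change -2.35, SE 0.56, adjusted p = 0.00327 by the edgeR quasi-likelihood test with Benjamini-Hochberg adjustment over all tested genes). Tek was lower as well (log2 fold change -2.09, SE 0.68, adjusted p = 0.0180). Flt1 followed (log2 fold change -1.40, SE 0.47, adjusted p = 0.0229). Esam was just past the threshold of 0.05 (log2 fold change -1.48, SE 0.57, adjusted p = 0.0449). Tie1 missed it (log2 fold change -1.12, SE 0.51, adjusted p = 0.0910), although its partner Tek passed, and DESeq2 called it lower (-1.14, adjusted p = 0.0451).

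The other 5 genes were not called. Cdh5 had a log2 fold change of -0.62 (SE 0.55, adjusted p = 0.393), Emcn of -0.74 (SE 0.57, adjusted p = 0.322) and Cldn5 of -0.64 (SE 0.57, adjusted p = 0.394). Pecam1 and Vwf lay above 0, at 0.29 (SE 0.40, adjusted p = 0.602) and 0.24 (SE 0.34, adjusted p = 0.611). The median over the 10 genes was -0.93, against -0.11 over all tested genes. The same 4 genes did not overlap between the groups, beside 22.8% of all genes.

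Part of this turned on HC4. With all 24 libraries in the fit, Kdr (log2 fold change -1.76, adjusted p = 0.00804) and Tek (-1.84, adjusted p = 0.0280) were still called lower, whereas Flt1 (-0.93, adjusted p = 0.172) and Esam (-0.92, adjusted p = 0.164) were not. The median of the 10 genes then moved to 0.23, and Kdr and Tek alone stayed without overlap between the tissues, beside 15.1% of all genes. Leaving out the fitted libraries one at a time kept Kdr past the threshold in 22 of 22 fits and Tek in 20, but Flt1 in 18 and Esam in 8. Without HC1, Kdr alone was called, at -1.91. Kdr was called with Flt1 without HC2 and with Tek without MC2, at -2.51 and -2.36.

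**Figure D2:**
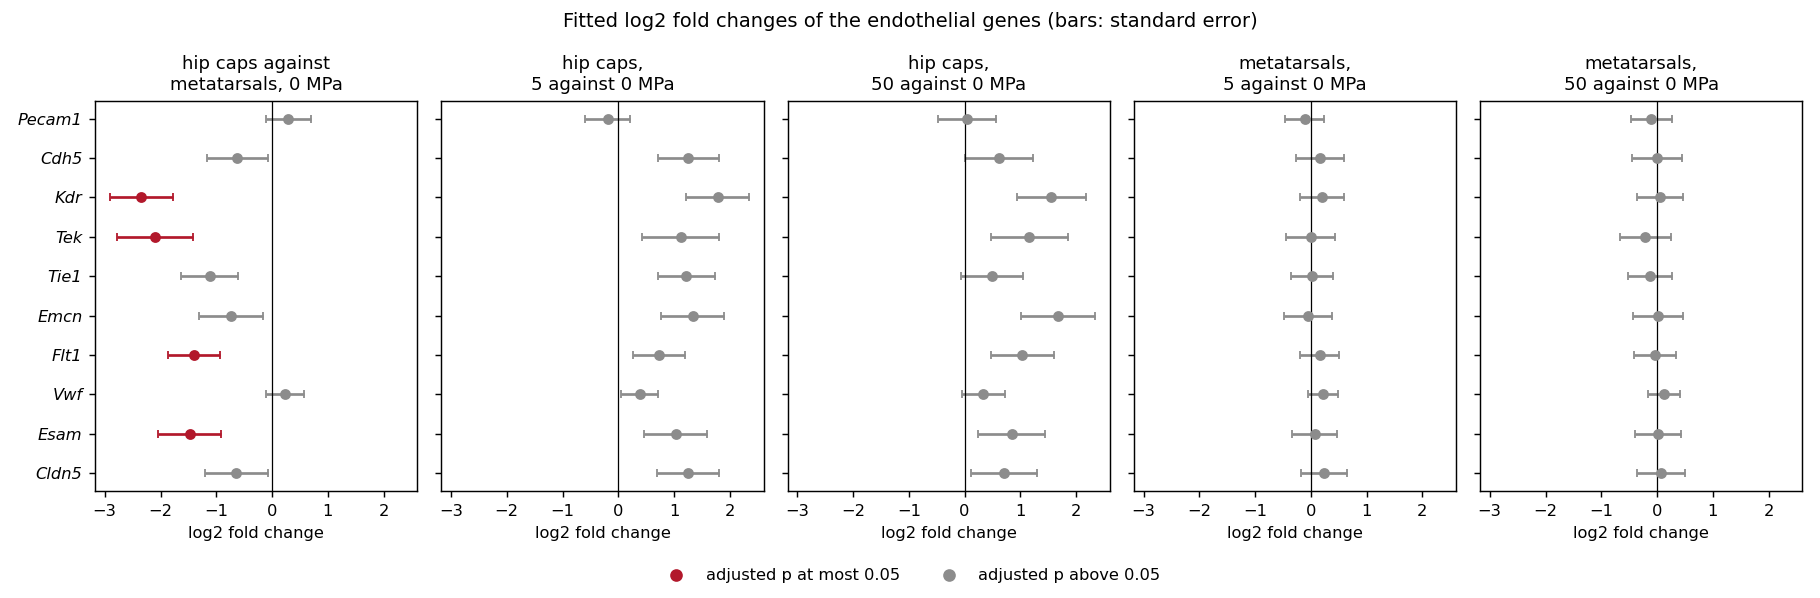
Fitted log2 fold change of each endothelial gene (points) with its standard error (bars) in 5 comparisons of the 22 libraries. Red points have an adjusted p of at most 0.05 and occur for Kdr, Tek, Flt1 and Esam in hip caps against metatarsals at 0 MPa, and the metatarsal points sit between -0.21 and 0.23.

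The same contrast at 5 MPa gave 0 called genes of 10, beside 37.5% of all genes in either direction, and 2 genes at an unadjusted p under 0.05, beside 45.8%. Those were Flt1 (log2 fold change -0.82, SE 0.35, adjusted p = 0.0715) and Tek (log2 fold change -0.97, SE 0.45, adjusted p = 0.0964), both below 0. The call turned on H53, the hip cap library with the highest levels. Without H53, Kdr (-1.45), Tek (-1.62), Flt1 (-1.43) and Esam (-1.31) were called lower in hip caps, the 4 genes named at 0 MPa, beside 15.5% of all genes called lower in that fit. DESeq2 called Flt1 alone, lower in hip caps, beside 22.8% of all genes called lower. At 50 MPa, 0 of 10 were called beside 22.4% of all genes, while 0 passed an unadjusted p under 0.05, beside 33.5%, and DESeq2 called 0. The fitted 50 MPa groups did not overlap for Cdh5 and Emcn, higher in hip caps beside 18.4% of all genes, and for Kdr, lower beside 21.4%. With H502 and HC4 included, Emcn stayed higher, beside 9.34%, and Kdr lower, beside 10.7%. With library type in the model the fitted log2 fold changes were 0.0043 for Cdh5 (SE 0.65), 0.90 for Emcn (SE 0.65) and -0.84 for Kdr (SE 0.60).

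Kdr also made up less of the endothelial signal in hip caps, a quantity free of the scaling between libraries. Its share of the 10 genes' summed CPM was 1.19, 8.66 and 7.26% in HC1 to HC3, 11.1, 11.1, 11.7 and 9.90% at 5 MPa and 13.1, 11.1 and 9.88% at 50 MPa, with 4.62% in HC4 and 7.88% in H502. In metatarsals the share was 16.6 to 21.2% over the 12 libraries, so none of the 24 libraries crossed between the tissues. Of all tested genes, 3.02% were lower in hip caps without overlap when set against the same sum. The sum ran from 60.6 CPM in HC2 to 298 CPM in H53, and dividing by it adds this spread to genes that do not follow it. That background is therefore no measure of how unusual Kdr is. The shares were chosen for description after their values were seen, so no test is given. Flt1 made up 4.72 ± 1.75% of the sum in hip caps (SD, n = 10) and 8.47 ± 1.32% in metatarsals (SD, n = 12), with overlapping ranges. Tek (1.56 ± 1.12% against 2.73 ± 0.388%), Esam (4.26 ± 1.46% against 6.02 ± 0.822%) and Tie1 (5.40 ± 1.24% against 5.63 ± 1.01%) also had smaller mean shares in hip caps. Their ranges overlapped. Cdh5, Vwf, Pecam1, Emcn and Cldn5 had larger mean shares in hip caps, all with overlapping ranges. For Cdh5 and Vwf they were 31.9 ± 8.17% against 24.7 ± 2.46% and 4.09 ± 1.25% against 2.49 ± 0.401%. For each 100 Cdh5 counts there were 8.33 to 63.8 Kdr counts in the 12 hip cap libraries and 57.9 to 99.0 in the 12 metatarsal libraries, with H502 the library above the lowest metatarsal value.

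**Figure D3:**
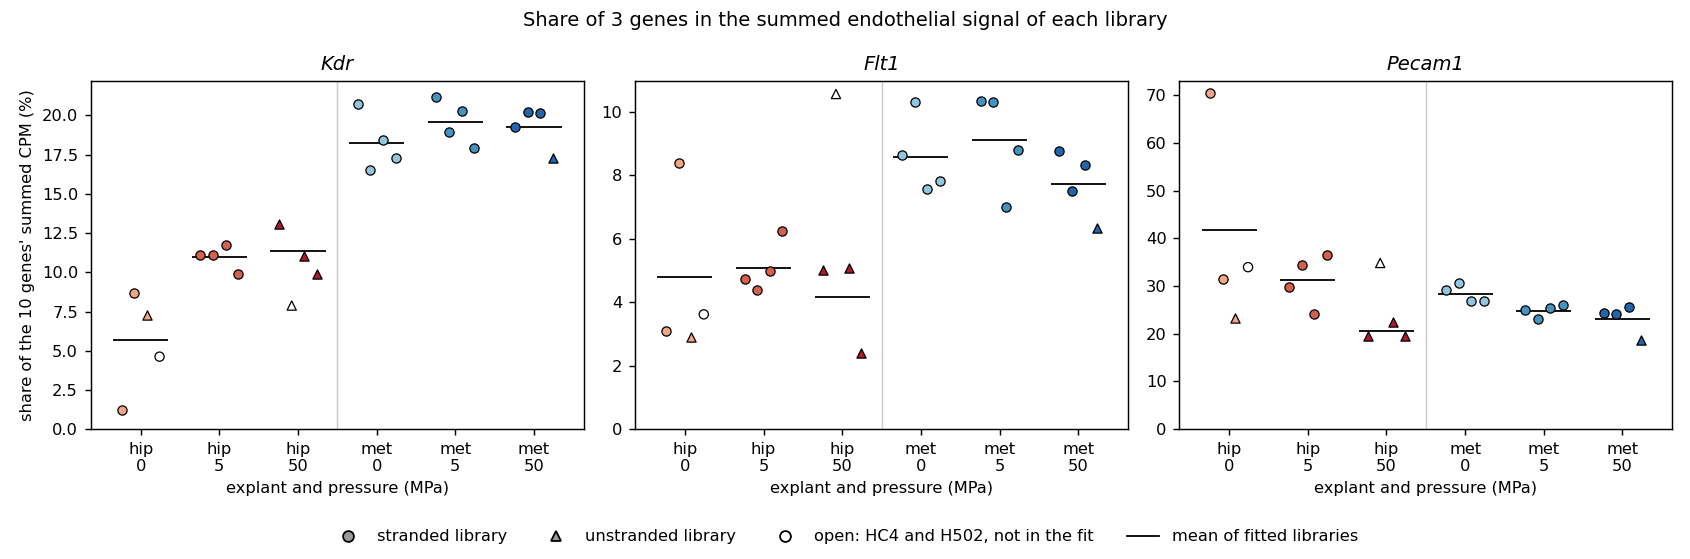
Share of Kdr, Flt1 and Pecam1 in the summed CPM of the 10 endothelial genes (percent) in each library, by explant and pressure in MPa, with lines at the means of the fitted libraries. For Kdr all hip cap libraries, open symbols included, lie under the metatarsal ones, and HC1 stands at 70.4% for Pecam1.

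The next question was whether pressure moved these genes within hip caps. At 5 MPa against control, 0 of 10 genes were called beside 5.46% of all genes, while 9 of 10 fitted changes lay above 0, with a median of 1.17 against 0.04 over all genes. H53 was the highest 5 MPa library for each of the 10 genes, with Cdh5 at 113 CPM. The other 5 MPa libraries held Cdh5 at 18.2 to 37.3 CPM, and HC1 to HC3 held it at 16.3 to 37. With libraries left out one at a time, the change ran from 0.10 to 1.02 for Flt1 and from 0.21 to 1.40 for Esam. For Cdh5 it ran from 0.40 to 1.58 and for Kdr from 1.05 to 2.17. An unadjusted p under 0.05 was reached by 5 of the 10, beside 22.6% of all genes. Kdr was the nearest to a call (log2 fold change 1.78, SE 0.56, adjusted p = 0.0715). Emcn (1.33, SE 0.56, adjusted p = 0.161), Cdh5 (1.26, SE 0.55, adjusted p = 0.184), Cldn5 (1.25, SE 0.56, adjusted p = 0.183) and Tie1 (1.22, SE 0.51, adjusted p = 0.157) made up the rest. Only Kdr had every 5 MPa library above HC1 to HC3, beside 8.4% of all genes, and HC4 at 12 CPM lay within the 5 MPa range, so that 0 of 10 were without overlap over all libraries, beside 2.88%. DESeq2 called Kdr, as did the fit without a term for library type and the fits without H52 (2.04) or H54 (2.07). The shares of all genes called in those fits are not given. With all 24 libraries the median was 0.30, 7 of 10 changes lay above 0, and the adjusted p of Kdr was 0.361.

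At 50 MPa against control in hip caps, again 0 of 10 were called beside 2.31% of all genes, and all 10 fitted changes lay above 0 (9 of 10 with all 24 libraries) with a median of 0.78 against 0.04 over all genes. Emcn (log2 fold change 1.67, SE 0.66, adjusted p = 0.150) and Kdr (log2 fold change 1.56, SE 0.62, adjusted p = 0.158) had an unadjusted p under 0.05, beside 21.3% of all genes, and DESeq2 called 0. Cdh5, Kdr, Emcn, Esam and Cldn5 had the 3 fitted 50 MPa libraries above HC1 to HC3, 5 of 10 beside 8.19% of all genes. With HC4 and H502 included, 0 of 10 were without overlap, beside 1.77%. Without H53, which enters through the shared spread, Kdr alone was called (1.52), and the share of all genes called in that fit is not given. All 50 MPa hip cap libraries were unstranded and HC3 was the sole unstranded control, so pressure and library type could be separated only through HC3 and M504. Against HC3 alone, Kdr was at 6.67 CPM against 10.2 to 20.7 and Esam at 5.14 against 5.88 to 9.91, values of single libraries with no test. The sign of Pecam1 was not settled, since its fitted change of 0.04 (SE 0.51) stood beside a mean of 26.2 ± 5.53 CPM (SD, n = 3) against 40.2 ± 34.6 CPM (SD, n = 3) in control, where HC1 was high. Without the library type term it was -0.56, and it was -0.38 without HC3. With HC4 kept and H502 left out Tie1 was at -0.23, and with all 24 libraries Cdh5 was at -0.00486. Between 50 and 5 MPa, 0 of 10 hip cap genes were called beside 0.0% of all genes, with changes from -0.72 to 0.34, and 0 had an unadjusted p under 0.05, beside 8.37%, or a DESeq2 call.

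In metatarsals no change with pressure passed the test. At 5 MPa the 10 log2 fold changes lay between -0.11 and 0.23 with SEs of 0.27 to 0.44, and at 50 MPa between -0.21 and 0.13 with SEs of 0.28 to 0.46. Adjusted edgeR calls numbered 0 of 10 in both, and 0 of 10 had an unadjusted p under 0.05, beside 2.26% and 3.13% of all genes, among which adjusted calls were 0.0% in each. Between 50 and 5 MPa the changes ran from -0.21 to 0.08, again with 0 of 10 called beside 0.0% and 0 with an unadjusted p under 0.05 beside 0.808%. DESeq2 called 0 of the 10 in the 3 comparisons. For Kdr the 95% interval of the log2 fold change, from its SE and 15 residual degrees of freedom, ran from -0.64 to 1.04 at 5 MPa and from -0.82 to 0.93 at 50 MPa. Whether the tissues differed in their change was tested with an interaction term, and 0 of 10 genes passed at either pressure in edgeR or DESeq2, beside 0.0658% and 0.0705% of all genes. Kdr had the lowest unadjusted p of the 10 at 5 MPa, with a difference of 1.58 (SE 0.69, adjusted p = 0.295), the 1 of 10 under 0.05 before adjustment beside 14.9% of all genes. At 50 MPa Emcn (1.64, SE 0.74, adjusted p = 0.258) and Kdr (1.50, SE 0.69, adjusted p = 0.277) were under 0.05 before adjustment, beside 17.3%.

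The same shares were set beside pressure, also with no test. In hip caps the share of Kdr was higher in each of the 4 libraries at 5 MPa (9.90 to 11.7%) than in each of the 4 controls, HC4 included (1.19 to 8.66%). Kdr was the 1 gene of the 10 that was higher without overlap there. Set against the same sum, 0.456% of all tested genes were higher without overlap in that comparison of all 24 libraries. At 50 MPa the fitted libraries were at 9.88 to 13.1% for Kdr, above HC1 to HC3, and H502 at 7.88% fell within the controls. In the fitted libraries 1.54% of genes were higher at 50 MPa without overlap when set against the same sum. The share of Pecam1 was 20.5% on average in the fitted 50 MPa hip caps and 41.7% in HC1 to HC3. That control mean held 70.4% in HC1 beside 31.5% in HC2 and 23.2% in HC3, and the ranges overlapped with all 24 libraries. In metatarsals the share of Pecam1 was 26.8 to 30.7% in the controls, above all 4 libraries at 5 MPa (23.1 to 26.1%) and all 4 at 50 MPa (18.6 to 25.6%), comparisons that share their controls. The matching background was 1.64% of genes at 5 MPa and 1.77% at 50 MPa. As above, the backgrounds set against the sum do not measure how unusual a member is.

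The spread among hip caps was shared by the genes. After group means were subtracted, 44 of 45 pairs of the 10 genes had a positive correlation of log2 CPM over the 10 fitted hip cap libraries (median r = 0.63) and 41 over the 12 metatarsal libraries (median r = 0.37), where the libraries share their depth and scaling. The genes whose pattern over the 22 libraries was most like the mean of the 10 were Ece1 (r = 0.94), Sox18 (r = 0.93), Notch4 (r = 0.93), Robo4 (r = 0.92), Cd93 (r = 0.92), Trp53i11 (r = 0.92), Pcdh1 (r = 0.91), Grap (r = 0.91), Itga9 (r = 0.90) and Hk3 (r = 0.90). Sox18, Robo4 and Cd93 stood on the fixed list of other endothelial genes and Notch4 on that of vessel subtypes. Over the metatarsal residuals the closest were Dexi (r = 0.97), Naa80 (r = 0.96), Card6 (r = 0.96), Ap3d1 (r = 0.96), Mcam (r = 0.95), Ggnbp1 (r = 0.94), Adamts2 (r = 0.94), Cox10 (r = 0.94), Plxdc1 (r = 0.93) and Lrrc56 (r = 0.93), of which Mcam marks endothelial cells and pericytes. Over the 10 hip cap residuals they were Mfsd12 (r = 0.98), Nfkbia (r = 0.98), Csf1 (r = 0.98), Bin1 (r = 0.98), Mcam (r = 0.98), Tmem132a (r = 0.98), Wdfy4 (r = 0.98), Postn (r = 0.98), Rasgrp2 (r = 0.97) and Becn1 (r = 0.97), a list that shares Mcam with the metatarsal one and holds 0 genes of the 22-library list.

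Some other fixed lists moved with the 10 genes between hip cap libraries. H53 had 298 CPM summed over the 10 genes against 70.6 to 115 in the other 5 MPa libraries. It also had 543 over 23 other endothelial genes against 166 to 242, and 722 over 9 macrophage genes against 119 to 210.3, but only 22236 over 10 chondrocyte genes against 36513 to 53373. HC4 had the same order, with 259.9 over the 10 genes against 60.6 to 114 in HC1 to HC3 and 475 over the other endothelial genes against 132 to 194. Over the fitted hip cap residuals the summed 10 genes correlated with co-receptors (r = 0.92), vessel subtypes (0.87), other endothelial genes (0.86) and platelet and megakaryocyte genes (0.82). Macrophage genes (0.80), pericyte and smooth muscle genes (0.75) and erythroid genes (0.65) followed. The ligands (0.37), skeletal muscle genes (0.10) and inhibitors of vessel growth (-0.30) were weaker, and chondrocyte genes had the opposite sign (-0.66). All rest on 10 libraries that share depth and scaling. Over the 12 metatarsal libraries other endothelial genes stood at 0.88, macrophage genes at 0.41 and chondrocyte genes at 0.11. The part of these lists in the results above was not tested.

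**Figure D4:**
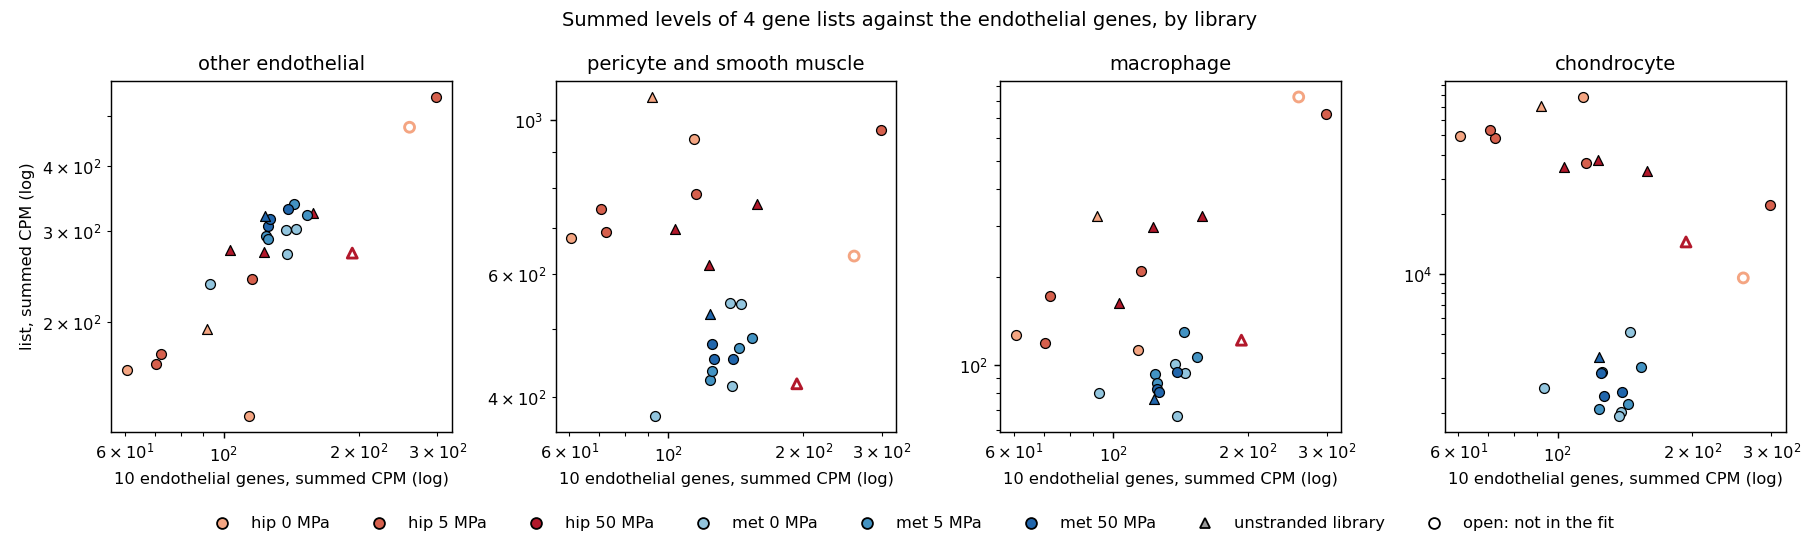
Summed CPM of 4 gene lists (vertical log axes) against the summed CPM of the 10 endothelial genes (horizontal log axes) in the 24 libraries, coloured by group, with open symbols for HC4 and H502. H53 and HC4 sit at the right of each panel, at 722 and 828 CPM for macrophage genes and 22236 and 9558 for chondrocyte genes, and the metatarsal libraries form a tight group.

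Counts for the other lists are given beside the 20.2% of all genes called lower and 18.4% called higher. Of 23 other endothelial genes, 9 were lower and 0 higher in the control hip caps (median log2 fold change -1.23). Cd34, a surface protein of endothelial and progenitor cells, was among them (-2.49, SE 0.38, adjusted p = 4.12e-05), whereas Cd93 (-0.75, adjusted p = 0.278) and Erg, an ETS factor also made by chondrocytes (0.19, adjusted p = 0.402), were not called. With all 24 libraries 3 of the 23 were lower, beside 12.5% of all genes, and the median was -0.10. Of 16 genes of vessel subtypes 12 were tested and 6 were lower, among them the arterial ligand Efnb2 (-2.10, adjusted p = 5.29e-09) and its venous receptor Ephb4 (-1.12, adjusted p = 5.69e-06), and 4 were lower with all 24 libraries. Of 10 pericyte and smooth muscle genes 5 were lower and 2 higher, the latter including Cspg4 (1.70, adjusted p = 4.29e-07), which chondrocytes also make. Among 9 macrophage genes 1 was higher and 1 lower, among 5 tested platelet and megakaryocyte genes 1 was higher, and among 4 tested erythroid genes 0 were called.

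Under pressure in hip caps, single genes of these lists were called and 0 of the 10 genes. Of all 21283 tested genes 5.46% were called at 5 MPa and 2.31% at 50 MPa. At 5 MPa 11398 of all tested genes lay above 0 and 9885 below, and at 50 MPa 10149 lay below 0. At 5 MPa Cd34 rose (1.46, SE 0.38, adjusted p = 0.0325), the 1 call among 23 other endothelial genes, 20 of which lay above 0. The macrophage genes Cd68 (1.73, adjusted p = 0.0134) and Csf1r (1.37, adjusted p = 0.0494) rose in the same comparison, and all 10 chondrocyte genes lay below 0, Hapln1 being called (-0.83, adjusted p = 0.0453). The muscle gene Ckm rose too (2.47, adjusted p = 0.0351). At 50 MPa the pericyte gene Rgs5 (2.90, SE 0.68, adjusted p = 0.0385), the platelet chemokine Pf4 (3.41, adjusted p = 0.0463) and Cd68 (1.79, adjusted p = 0.0488) rose, while Ephb4 (-0.74, adjusted p = 0.0384) and Cspg4 (-0.94, adjusted p = 0.0430) fell. All 10 chondrocyte genes were again below 0, with Sox9 called (-1.27, adjusted p = 0.0353), and the muscle gene Ttn rose (2.22, adjusted p = 0.0384). With all 24 libraries 0 genes of these lists were called at either pressure, and Cd34 stood at 0.32 (adjusted p = 0.848).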

How the data were processed

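RNA from 24 libraries was sequenced by the study. Per the labels and methods, the authors trimmed reads with Trim Galore 0.6.5, assigned them to transcripts with kallisto (build GRCm39) and brought these to gene level through tximport, so the deposited estimated counts carry no normalization. They were rounded, genes kept by filterByExpr (21283 of 52178) and libraries scaled by TMM. A group and library type model over 22 libraries was fitted with edgeR 4.0.16 (R 4.3.3, robust quasi-likelihood, two-sided tests, Benjamini-Hochberg adjustment within each comparison, threshold 0.05); DESeq2 1.42.0 served as an alternative. SEs come from the fold change and its F statistic. The sequencing run, a term of the study's design, stands in no label and was not used.

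Symbols, positions and lengths come from GENCODE M21 on GRCm38, which is not the authors' build; 48845 identifiers matched, and no exon of the 10 genes overlaps another gene's exon there. The table holds 0 columns of other samples. Counts were simulated from the fitted model, with each size of change planted in 100 random genes, so the rates are not specific to the 10 genes. For hip caps at 5 MPa against control, 36% of 2-fold and 65% of 4-fold changes were recovered among 20892 genes. The rates were 19% and 55% for hip caps at 50 MPa among 20923. They were 43% and 78% for metatarsals at 5 MPa among 20898, and 38% and 66% at 50 MPa among 20881. The members and gene lists were chosen with earlier results of these data known. All 10 members are named; members of other lists are named if among the 3 highest by mean CPM or called under pressure. Alternatives were other scalings, count filters, library sets, covariates, the replicate block, DESeq2 and leaving out each library. Totals of 4185241 to 25104240 counts limit the precision, as does the spread among hip cap libraries. The study also reports low RNA integrity values, which it reads as partial degradation. Replicate libraries are separate mice for hip caps; for metatarsals the source of each pool is not given, so p-values may measure technical spread.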

Additional observations from a re-analysis of the deposited data

Results flagged for a closer look

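Vwf in H502 stood at 26.9 CPM, far from the 3 other hip cap libraries at 50 MPa, which lay between 3.69 and 5.88 CPM. Its gap to the nearest of them was 0.906 of the range of the group, above Dixon's 95% critical value for 4 libraries. It was the 1 such case among 60 sets of gene and group, of which chance alone flags about 1 in 20.

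The libraries that the study left out carry endothelial signal. In HC4, 8 of the 10 genes were above the highest of HC1 to HC3, beside 32.8% of all tested genes, with Vwf (3.04 against 4.08 CPM) and Tek (1.48 against 2.10 CPM) as the exceptions. In H502, a 50 MPa library, 8 of the 10 genes were above the same 0 MPa controls, beside 44.1% of all tested genes. The exceptions were Cdh5 (23.9 against 37 CPM) and Pecam1 (67.5 against 80.2 CPM). For 5 of the 10 genes the 3 fitted 50 MPa libraries were all above HC1 to HC3 as well, beside 8.19% of all genes. Against those 3 libraries H502 was highest for Pecam1, Tie1, Flt1 and Vwf and lowest for Cdh5. It lay within their range for Kdr, Tek, Emcn, Esam and Cldn5.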

How the results depend on the processing

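Counts of called genes changed as follows. In hip caps against metatarsals at 0 MPa, the 4 calls became 8 with library sizes alone (median of all genes -1.06 against -0.11), 2 without a filter, with stranded libraries only, with all 24 libraries (with or without the library type term) and with HC4 kept, and 1 with at least 10 counts in every library, which tested 5 of the 10 genes, Kdr not among them. DESeq2 gave 5, and no library type term and H502 kept gave 3 each. Genes called lower made up 52.1% of all with library sizes alone, 8.1% without a filter, 12.5% with all 24 libraries and 22.4% with DESeq2. Leaving out libraries one at a time gave 1 to 5. Between the tissues at 5 MPa the 0 calls became 1 with DESeq2 and with the replicate block, beside 22.8% and 18.1% of all genes called lower. They became 4 with library sizes alone, beside 42.1%, and 0 to 4 without single libraries, beside 15.5% in the fit without H53. Between the tissues at 50 MPa they became 2 with library sizes alone and 1, Vwf, with all 24 libraries and no library type term. In hip caps at 5 MPa against control, 0 became 1 (Kdr) with DESeq2 and without the library type term, 5 with library sizes alone, and 0 to 1 without single libraries (1 without H52 or H54). In hip caps at 50 MPa leaving out single libraries gave 0 to 1 (Kdr, without H53). For the tissues at 50 MPa and for pressure in hip caps, the shares of all genes called in each setting are not given. Those counts are therefore not read as results about the 10 genes. The remaining comparisons kept 0 calls under every setting that could be run.

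Signs turned in uncalled genes. Over the 11 comparisons and all 10 genes 279 refits had the opposite sign and 0 of them were called. The turns among the results given with their own test follow. Between the tissues at 0 MPa, all 24 libraries, all 24 without the library type term, and HC4 kept gave Cdh5 0.44, 0.44 and 0.44, Tie1 0.36, 0.35 and 0.37, Emcn 0.77, 0.64 and 0.80, and Cldn5 0.28, 0.39 and 0.30. In hip caps at 5 MPa they gave Tie1 -0.24, -0.24 and -0.26, and Emcn -0.18, -0.047 and -0.20. All 24 libraries without the library type term also gave Emcn -0.031 at 50 MPa and -0.0066 in the interaction. Library sizes alone gave Pecam1 -0.66 and Vwf -0.69, and Pecam1 ran from -0.72 (without HC1) to 0.74 when libraries were left out one at a time. The cause of these changes was not tested.

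Of 736 refits of single genes, 659 kept direction and call, 23 turned, 32 lost and 22 gained a call. The replicate block, which pairs libraries of one number, changed no count of calls but that between the tissues at 5 MPa. Residual correlations of same-numbered libraries ran from -0.29 to 0.17 over 50 pairs, so the numbers were not taken to pair the libraries. Few counts limit Tek and Emcn in hip caps, and the low depth of MC1 and HC1 limits the controls. Keeping HC4, H502 or both, and shares from other sets of libraries, were added after seeing the data.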

Other observations

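The ligands of the receptors did not follow one direction. Of 8 VEGF and angiopoietin ligands, 3 were lower and 1 higher in hip cap than in metatarsal controls. Over all tested genes 20.2% were called lower and 18.4% higher. Vegfa, the ligand of Kdr and Flt1 and the most abundant of them, stood at -0.28 (edgeR, SE 0.33, adjusted p = 0.530), and Angpt1, the activating ligand of Tek, at -1.35 (SE 0.21, adjusted p = 3.15e-05). Angpt2, the context-dependent ligand of Tek, was at 0.05 (adjusted p = 0.942). At 50 MPa in hip caps Angpt1 rose (1.25, SE 0.27, adjusted p = 0.0272), and with all 24 libraries it was at 0.72 (adjusted p = 0.443). The co-receptors Nrp1 (-0.16) and Nrp2 (-0.33) were not called between the tissues. All 7 inhibitors of vessel growth were called between the tissue controls, 3 higher and 4 lower in hip caps, beside the same shares of all genes. Chondromodulin Cnmd (3.71, adjusted p = 4.06e-09), which the chondrocyte list holds too, Thbs1 (3.16, adjusted p = 3.74e-09) and Timp3 (1.96, adjusted p = 8.86e-07) were the higher ones. Serpinf1, an inhibitor made by cartilage, rose at 5 MPa in hip caps (1.15, adjusted p = 0.0416) and was at 0.29 (adjusted p = 0.860) with all 24 libraries.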
